A study of Mus musculus with 4 samples.

Results

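The Hoxa cluster genes followed here are *Hoxa2*, *Hoxa3*, *Hoxa4*, *Hoxa5*, *Hoxa7*, *Hoxa9*, *Hoxa10*, *Hoxa11* and *Hoxa13*, 9 of the 28692 genes in the count matrices. They were listed by symbol. Their unique molecular identifiers (UMIs, each counting a captured RNA molecule once) were summed by intestine and by cell class. The study sequenced single mesenchymal stromal cells (MSC) of the lamina propria, the connective tissue under the gut epithelium, from the small intestine and the colon of C57BL6/Nrj mice. All mice were female, untreated and 8 to 10 weeks old, with 3 mice in each of 2 independent experiments, and each intestine has 2 libraries. Muscularis externa was stripped off, and live Itgb1+ cells without CD45, Ter119, CD31, BP3, EpCAM or L1CAM were sorted, a gate that removes most immune, endothelial, epithelial and glial cells. Libraries were made with a 10x Genomics 3′ or 5′ kit, and the sources used here do not say which library had which.

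Hox genes encode homeodomain transcription factors that give cells a position along the head-to-tail axis, and in each cluster the order of the genes on the chromosome follows the order of their domains in the embryo. In the gut mesenchyme, genes at the 3′ end of a cluster are known from anterior segments, and genes at the 5′ end, such as *Hoxa13*, from the hindgut. Their proteins bind DNA together with cofactors of the Pbx and Meis families, and Cdx factors are known upstream regulators.

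The 4 libraries held 2061 to 16795 barcodes and 14341443 to 52269372 UMIs, and 30685 cells were kept after filtering, with a median of 2735 to 8810 UMIs per cell and library. Replicate 1 of each intestine had fewer and more deeply sequenced cells than replicate 2. Cells were placed by marker genes into PDGFRahi fibroblasts (FB; 5130 cells), CD81+ FB (6041), other FB (16837), smooth muscle cells (SMC; 1322), pericytes (256) and endothelium (595), without use of any Hox gene. These classes are ranges of a marker score: between 0.84% of the cells (endothelium) and 27.98% (CD81+ FB) lay near a cut. All markers of its own list (3 to 9 genes) were detected in each class in every library where it had cells. Cells were placed by marker genes, so this detection does not test the names of the classes. All 7 SMC markers and all 8 pericyte markers were also detected in other FB of colon replicate 2. In pericytes the SMC markers summed to more UMIs than the pericyte markers in colon replicate 1, and to fewer in the other libraries. Endothelium, which the sort should remove, came almost wholly from replicate 1 (346 cells in small intestine and 232 in colon), with 0 and 17 cells in the replicate 2 libraries. Small intestine replicate 2 and colon replicate 2 shared 69 barcodes, and small intestine and colon replicate 1 shared 8. The shared barcodes held 0 UMIs of *Hoxa9* to *Hoxa13* in the small intestine libraries.

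The 9 genes lie on the minus strand of chromosome 6 within 98464 bases (chr6:52162417-52260880, GRCm38). *Hoxa2* (52162417 to 52164831), *Hoxa3* (52169062 to 52213336), *Hoxa4* (52189671 to 52191753) and *Hoxa5* (52201754 to 52204587) form the 3′ part. *Hoxa7* (52214491 to 52221854) lies in the middle. *Hoxa9* (52223100 to 52231089), *Hoxa10* (52231197 to 52240854), *Hoxa11* (52242106 to 52245810) and *Hoxa13* (52257694 to 52260880) form the 5′ part. All 9 are protein coding. Exons of the same strand were shared with another gene for 15.04% of the exonic bases of *Hoxa2* and 8.01% of those of *Hoxa3* (with *Gm28308*), and their counts are uncertain to that extent. Exons of the opposite strand overlapped 17.06% of *Hoxa3*, 16.0% of *Hoxa4* and 20.38% of *Hoxa7*.

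RefSeq promoter windows (GRCm38.p6) were matched for 8 of the 9 members, without *Hoxa4*. The 250 bases before the start are printed here on the minus strand and 5′ to 3′, for 5 members that span the cluster. They are 2 that were higher in small intestine (*Hoxa2*, *Hoxa5*), the middle gene *Hoxa7* and 2 found in colon (*Hoxa10*, *Hoxa13*). In the *Hoxa7* window 78 bases lie in annotated exons, and an unbroken run of 112 bases outside them is printed. *Hoxa10* has 2 windows, and the one printed lies within the span of the gene given above. Capitals mark matches on either strand to TTTATG, the letters of a Cdx site, or TGATNNAT, those of a joint Pbx and Hox site.
Hoxa2, chr6:52164832-52165081: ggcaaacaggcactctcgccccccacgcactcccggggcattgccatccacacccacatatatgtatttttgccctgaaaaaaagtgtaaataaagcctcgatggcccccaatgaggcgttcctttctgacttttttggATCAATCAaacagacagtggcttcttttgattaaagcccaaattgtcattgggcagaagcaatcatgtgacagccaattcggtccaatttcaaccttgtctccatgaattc
Hoxa5, chr6:52204588-52204837: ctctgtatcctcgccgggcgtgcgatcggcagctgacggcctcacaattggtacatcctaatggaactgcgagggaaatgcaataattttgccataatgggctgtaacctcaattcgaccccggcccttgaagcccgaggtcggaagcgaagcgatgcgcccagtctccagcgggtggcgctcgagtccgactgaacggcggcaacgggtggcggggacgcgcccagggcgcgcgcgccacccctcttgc
Hoxa7, chr6:52218712-52218823: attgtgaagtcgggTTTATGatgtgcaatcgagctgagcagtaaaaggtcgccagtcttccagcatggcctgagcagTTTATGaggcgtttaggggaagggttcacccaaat
Hoxa10, chr6:52234940-52235189: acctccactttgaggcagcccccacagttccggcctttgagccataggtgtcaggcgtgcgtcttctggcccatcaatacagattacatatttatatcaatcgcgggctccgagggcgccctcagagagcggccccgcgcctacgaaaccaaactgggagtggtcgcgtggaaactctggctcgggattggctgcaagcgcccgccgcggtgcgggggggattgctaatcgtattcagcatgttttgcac
Hoxa13, chr6:52260881-52261130: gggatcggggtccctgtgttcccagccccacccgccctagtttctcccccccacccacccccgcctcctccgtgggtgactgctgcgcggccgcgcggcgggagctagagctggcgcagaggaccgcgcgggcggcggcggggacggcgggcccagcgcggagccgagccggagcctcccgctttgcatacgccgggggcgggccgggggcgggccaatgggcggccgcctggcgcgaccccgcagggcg

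There were 9 member windows, with 2 for *Hoxa10* and none for *Hoxa4*. The Cdx letters were in 1 of the 9, that of *Hoxa7* with 2 matches, against 10.76% of the 32851 mouse promoter windows. The Pbx and Hox letters were in 1 of 9, that of *Hoxa2*, against 7.68% of all windows. The number of CG pairs in a window ran from 3 (*Hoxa9*) and 6 (*Hoxa2*) to 28 (*Hoxa5*) and 35 (*Hoxa13*), beside a median of 6 over all promoters. Neither the letters nor the CG pairs divided the genes of the 3′ part from those of the 5′ part.

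The fibroblasts of the small intestine and of the colon held UMIs of opposite parts of the cluster. Summed over all fibroblasts, the 4 genes of the 3′ part were higher in both small intestine libraries than in either colon library, and the 4 genes of the 5′ part were counted in both colon libraries and in no small intestinal fibroblast. *Hoxa7*, between them, was present in both, at a lower level in colon. Levels below are UMIs per 1000000 UMIs (CPM) of the summed cells of a class, which are not scaled for gene length and so are compared between samples and not between genes.

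Among the 3′ genes, *Hoxa5*, a regulator known from lung and gut mesenchyme, was at 35.9 CPM in all fibroblasts of small intestine replicate 1 and 52.7 in replicate 2, against 2.14 and 5.28 in colon. The groups did not overlap, and the summed level was 11.2-fold higher in small intestine. The small intestinal fibroblasts had *Hoxa4* at 7.22 and 13.5 CPM, and those of the colon at 0.382 ± 0.289 (SD, n = 2) in colon, a 25.8-fold difference. *Hoxa2*, known from hindbrain and face patterning, was at 8.56 and 7.34 CPM in small intestine against 0.356 and 0.519 in colon (16.0-fold). *Hoxa3*, known from pharyngeal organ formation, had the smallest difference of the 4, with 9.28 and 11.3 CPM against 1.25 and 2.5 (5.05-fold). The middle gene *Hoxa7* stood at 36.7 and 32.3 CPM in small intestine and 19.0 and 17.6 in colon, a 1.84-fold difference with no overlap.

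Among the 5′ genes, *Hoxa10*, a gene of posterior trunk and reproductive tract patterning, was at 68.1 and 49.1 CPM in the fibroblasts of the colon libraries. No UMI of it was found in 15215 small intestinal fibroblasts, which at a floor of 3 counts over the group makes it at least 889-fold higher in colon. *Hoxa11*, known from limb and uterus development, was at 40.6 and 26.2 CPM in colon (at least 494-fold higher). *Hoxa9* was at 19.9 and 17.0 CPM (at least 291-fold) and *Hoxa13*, required for hindgut development, at 10.2 and 24.9 CPM (at least 341-fold). Over all barcodes of the small intestine files, before any cell filter, the count of *Hoxa10*, *Hoxa11* and *Hoxa13* was 0, against 1592, 886 and 240 UMIs in colon replicate 1 and 2791, 1413 and 1375 in colon replicate 2. The 5′ genes passed the filter on low counts only through the colon, so that those tested had to differ.

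**Figure D1:**
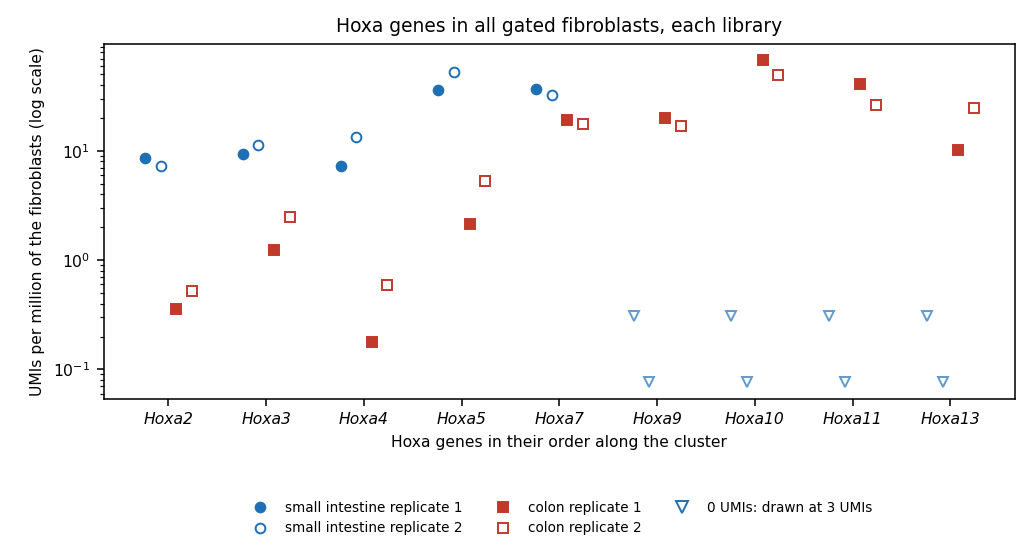
UMIs per 1000000 (CPM, log scale) of the 9 Hoxa genes in all gated fibroblasts of each library, in their order along the cluster. Filled and open symbols are replicates 1 and 2, circles small intestine and squares colon. Triangles mark 0 UMIs, drawn at the level of 3 UMIs. Small intestine lies above colon from *Hoxa2* to *Hoxa7*, and colon values of 10.2 to 68.1 stand against 0 from *Hoxa9* to *Hoxa13*.

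The make-up of the Hoxa UMIs differed between the intestines. In all fibroblasts the 9 genes together made 97.7 and 117 CPM in small intestine and 162 and 144 in colon. *Hoxa2* to *Hoxa5* held 62.4% and 72.4% of these UMIs in small intestine against 2.42% and 6.18% in colon. *Hoxa9* to *Hoxa13* held 0% in both small intestine libraries against 85.8% and 81.5% in colon. In SMC the colon shares of *Hoxa9* to *Hoxa13* were 89.2% and 84.4%, and in pericytes 82.7% and 90.6%. Endothelium stood apart in colon, where *Hoxa9* to *Hoxa13* held 27.8% and 36.4%, the latter of only 11 Hoxa UMIs. *Hoxa7* held 55.9% of the endothelial Hoxa UMIs in small intestine replicate 1 and 57.8% and 36.4% in colon. In pericytes of small intestine replicate 2, *Hoxa7* held 70.0%, of only 10 UMIs.

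**Figure D2:**
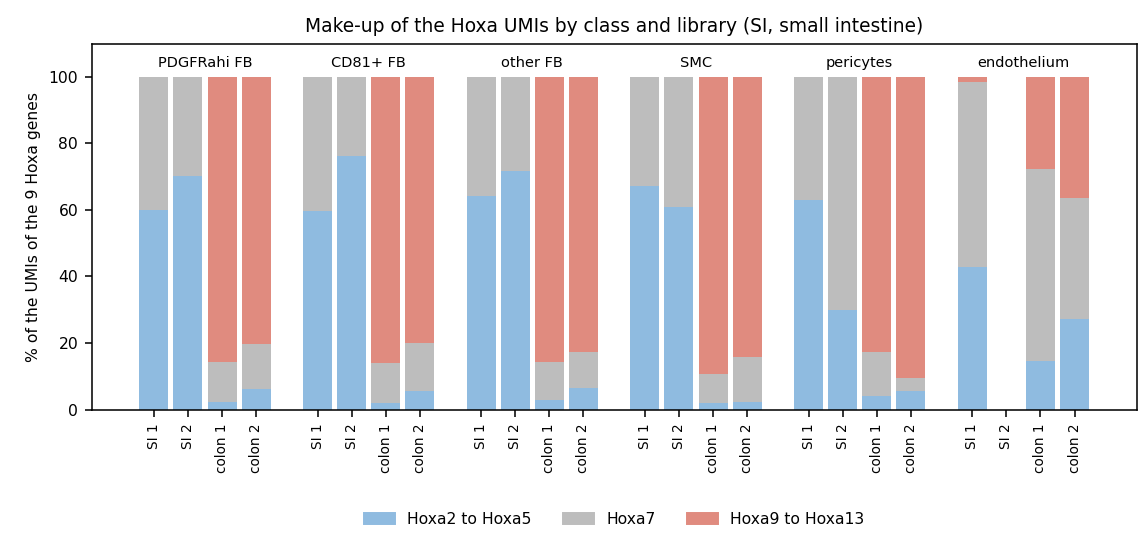
Share (%) of the UMIs of the 9 Hoxa genes held by *Hoxa2* to *Hoxa5* (blue), *Hoxa7* (grey) and *Hoxa9* to *Hoxa13* (red) in each class and library; SI is small intestine, and there is no bar for small intestine replicate 2 endothelium, which had 0 cells. Red is absent from the small intestine bars apart from 1.38% in endothelium, and holds 80.2% to 90.6% in the colon bars of the other 5 classes.

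To ask in which classes the intestines differed, UMI sums per library and class were tested across all genes (edgeR quasi-likelihood, Benjamini-Hochberg adjusted p under 0.05 and log2 fold change beyond 1.5). Fold changes of genes with 0 UMIs in small intestine are given as lower bounds from 3 counts over the group. With 2 libraries a side no exact permutation test can go below p = 0.3333, and the p-values measure the spread between these pooled-mouse libraries.

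PDGFRahi FB, the cells under the epithelium that make Bmp and Wnt ligands, had calls at both ends of the cluster. *Hoxa10* was at 74.5 and 59.2 CPM in colon and 0 in small intestine (at least 94.3-fold, adjusted p = 0.0185), *Hoxa11* at 48.5 and 31.2 (at least 54.5-fold, adjusted p = 0.0247) and *Hoxa9* at 26.4 and 23.7 (at least 36.0-fold, adjusted p = 0.0247). *Hoxa4* fell from 10.5 and 11.2 CPM in small intestine to 0.281 and 0.630 in the colon libraries (-4.27 on the log2 scale, SE 0.60, adjusted p = 0.0433). *Hoxa2* fell from 8.37 and 13.3 CPM to 0.562 and 0.866 (log2 fold change -3.71, SE 0.56, adjusted p = 0.0495). These 5 of 9 members stood beside 1.88% of the 11741 genes tested. Of the 5, *Hoxa9*, *Hoxa10* and *Hoxa11* were at 0 in small intestine and so had to differ. *Hoxa5*, at 55.1 and 68.4 CPM against 1.97 and 6.77, did not pass (log2 fold change -3.60, SE 0.65, adjusted p = 0.0751), nor did *Hoxa13*, at 0 against 11.9 and 33.7 CPM (adjusted p = 0.0861). *Hoxa3* (adjusted p = 0.108) and *Hoxa7* (log2 fold change -1.01, adjusted p = 0.213) did not pass either, and for all 9 members the libraries of the intestines did not overlap. If either small intestine replicate 1 or replicate 2 was left out, 0 members were called, and without colon replicate 2, 8.

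In CD81+ FB, a class known for *Grem1* and *Rspo3*, 2 of 9 members passed, against 0.367% of 11703 genes. They were *Hoxa10*, at 55.4 and 33.9 CPM in colon (at least 160-fold, adjusted p = 0.0418), and *Hoxa11*, at 24.1 and 15.3 CPM (at least 71.4-fold, adjusted p = 0.0469). Both were at 0 in small intestine and so had to differ, and their count is no test of the list. In small intestine *Hoxa5* was at 16.7 and 31.6 CPM and in colon at 1.82 and 2.16, just short of the threshold with an adjusted p of 0.0531 (log2 fold change -3.68, SE 0.43). *Hoxa4* was at 7.84 and 16.3 CPM against 0 and 0.308 (adjusted p = 0.0769), and *Hoxa9* and *Hoxa13* were at 0 in small intestine against 7.39 to 12.4 CPM in colon (adjusted p = 0.0793 and 0.0769). The calls fell to 0 without small intestine replicate 1 or replicate 2, and without colon replicate 1 or 2 they were 6 and 5.

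In the other FB, the largest class, *Hoxa10* (66.6 and 50.0 CPM in colon, at least 581-fold), *Hoxa11* (39.0 and 28.2 CPM, at least 331-fold) and *Hoxa9* (16.3 and 17.4 CPM, at least 184-fold) passed, each at adjusted p = 0.0385. These 3 of 9 members stood beside 0.348% of 12945 genes. All 3 were at 0 in small intestine and so had to differ, and their count is no test of the list. *Hoxa13*, with 9.31 and 25.8 CPM in colon, had an adjusted p of 0.114. *Hoxa2* was at 11.4 and 7.87 CPM in small intestine with 0.143 and 0.366 CPM on the colon side (-5.00 on the log2 scale, SE 0.55, adjusted p = 0.0643), and *Hoxa5* at 41.9 and 58.4 against 2.43 and 5.80 (log2 fold change -3.56, SE 0.52, adjusted p = 0.0942). No member (0) was called without small intestine replicate 2.

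SMC of the lamina propria carried the highest colon level of *Hoxa10* among the 6 classes, 122 and 110 CPM, against 0 in 223 small intestinal SMC (at least 29.2-fold, adjusted p = 0.0240). *Hoxa5* fell from 37.0 and 39.5 CPM in small intestine to 1.33 and 2.74 in the colon libraries (-4.11 on the log2 scale, SE 0.54, adjusted p = 0.0416). These were 2 of 8 members tested, beside 0.473% of 9520 genes, and *Hoxa2*, with 8 UMIs in small intestine and 2 in colon, was too low to test. Of the 2, *Hoxa10* was at 0 in small intestine and so had to differ. *Hoxa4* was at 19.7 and 25.4 CPM in small intestine against 0.444 and 1.18 in colon (adjusted p = 0.0746). *Hoxa13* was at 21.8 and 58.4 CPM in colon against 0 (adjusted p = 0.159). Without small intestine replicate 1 or 2, 1 member was called, and without colon replicate 1, 4. *Hoxa10* in SMC was called in 12 of 12 alternative settings.

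In pericytes, the mural cells of small vessels, *Hoxa9* was at 59.2 and 69.5 CPM in colon, *Hoxa10* at 89.6 and 96.3 and *Hoxa11* at 66.8 and 48.1, all 3 at 0 in 97 small intestinal pericytes. At this depth the bounds were at least 7.24-, 10.7- and 7.38-fold. In edgeR 0 of these 3 members tested passed (adjusted p = 0.628, 0.249 and 0.696), where 0% of 4225 genes did; all 3 had an unadjusted p under 0.05, as had 160 of all genes, and DESeq2 called 0. Without small intestine replicate 2, 3 were called, and without colon replicate 2, 2. Pericyte *Hoxa5* was at 36.9 and 36.6 CPM in small intestine, from 13 UMIs, and 6.08 and 5.35 in colon, from 5. Pericyte *Hoxa7* was at 33.5 and 128 CPM in small intestine, from 17 UMIs, and 36.5 and 10.7 in colon, from 26, so that the intestines overlapped.

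In endothelium the 5′ genes *Hoxa9* and *Hoxa10* were counted mostly in colon, as in the other classes. The intestines overlapped for *Hoxa7*, as they did in pericytes, and lay close for *Hoxa5*. *Hoxa7* was at 52.8 CPM in small intestine replicate 1 and at 86.5 and 36.2 in colon (log2 fold change 0.22, SE 0.68). The colon libraries lay on either side of small intestine, which rests on few counts. Colon replicate 2 held 4 UMIs of *Hoxa7* and 3 of *Hoxa2* to *Hoxa5*, in 17 cells. *Hoxa5* was at 29.3 CPM in small intestine and 16.0 and 27.1 in the colon libraries (-0.80 on the log2 scale, SE 0.75, adjusted p = 1.00). *Hoxa9* was at 1.30 CPM in small intestine, from 2 UMIs in 2 cells, and at 28.8 and 27.1 in colon, or 22.0 times as high (95% interval from counting error 5.71 to 188, adjusted p = 0.815). *Hoxa10* had 0 UMIs in small intestine and 16 in colon, at 12.8 CPM in replicate 1 and 0 in replicate 2 (at least 6.03-fold higher in colon, adjusted p = 1.00). In edgeR 0 of 4 members tested passed, against 0.0521% of 9595 genes, with 2 at an unadjusted p under 0.05 and 0 by DESeq2. Only 1 small intestine library had endothelial cells, and its spread was taken from the colon libraries. The fibroblast markers summed to 31.3 and 16.0 CPM in the endothelium of the replicate 1 libraries, against 27892 and 22517 in their other FB. In the 17 cells of colon replicate 2 the fibroblast markers summed to 823 CPM. The part of fibroblast or ambient RNA in these levels was not tested.

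**Figure D3:**
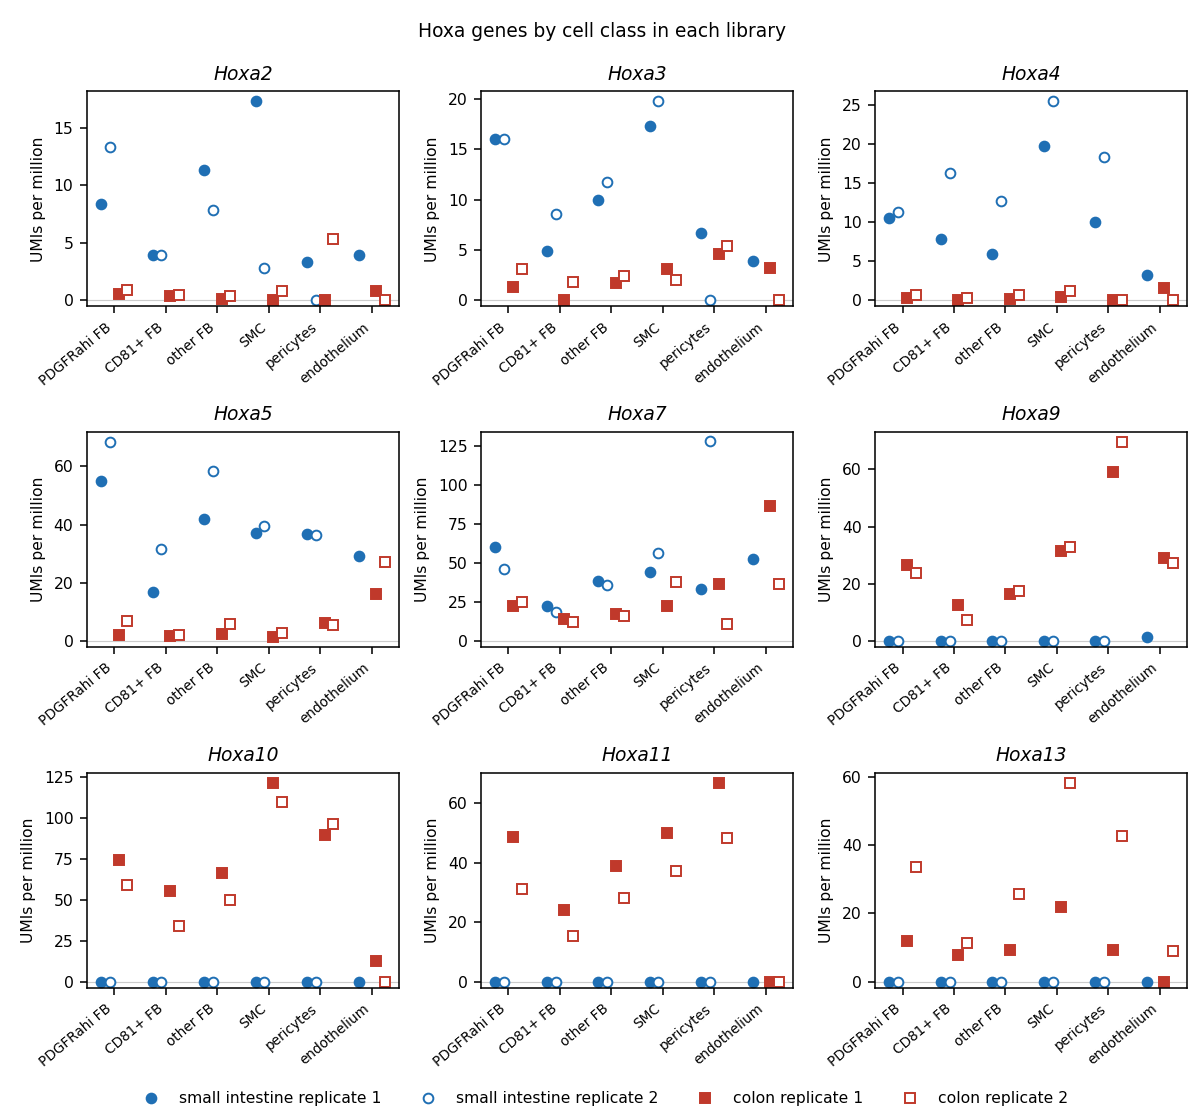
UMIs per 1000000 (CPM) of each Hoxa gene by cell class in each library, with a linear scale of its own in each panel. Circles are small intestine, squares colon, filled replicate 1 and open replicate 2. *Hoxa9*, *Hoxa10*, *Hoxa11* and *Hoxa13* sit at 0 in the small intestine of every class apart from *Hoxa9* in endothelium (1.30). The intestines overlap for *Hoxa7* in endothelium and in pericytes, and endothelial *Hoxa5* is at 29.3 in small intestine and 16.0 and 27.1 in colon.

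Whether the colon effect itself differed between classes was tested as the class by intestine term, each class against other FB. The term could not be estimated for members at 0 in small intestine in both classes, which left 6 members for endothelium and 5 for each other class. Endothelium differed for 2 of 6 members, against 1.27% of 13603 genes: the colon effect was higher by 2.96 (log2, SE 0.52, adjusted p = 0.00151) for *Hoxa5* and by 1.73 (SE 0.39, adjusted p = 0.0259) for *Hoxa7*. Without small intestine replicate 2, 1 of them was called, and without colon replicate 1, 0. DESeq2 called 1. The small intestine side rests on 1 endothelial library. In edgeR 0 of 5 members differed for PDGFRahi FB (5.73% of all genes did), CD81+ FB (1.18%), SMC (0.978%) or pericytes (0.206%), with 0 members at an unadjusted p under 0.05 in each and 0 calls by DESeq2. For *Hoxa7* the difference from other FB was 0.25 (SE 0.27) in PDGFRahi FB, 0.40 (SE 0.30) in CD81+ FB and 0.60 (SE 0.41) in SMC. For *Hoxa5* it was 0.05 (SE 0.28), -0.33 (SE 0.37) and -0.49 (SE 0.59).

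The classes were next compared within libraries. Fitted with the library as a block, 3 of 9 members were higher in SMC than in other FB, where 29.7% of 12306 genes passed: *Hoxa10* by 0.89 (log2, SE 0.21, adjusted p = 0.00580), *Hoxa13* by 1.07 (SE 0.29, adjusted p = 0.0139) and *Hoxa9* by 0.82 (SE 0.26, adjusted p = 0.0250). These 3 rest on the colon libraries, since the genes are at 0 in the small intestine, and without colon replicate 1 or without colon replicate 2, 0 were called. The fibroblast markers summed to 5836 and 7316 CPM in colon SMC and 22517 and 23718 in colon other FB, and the part of fibroblast RNA in the SMC levels was not tested. *Hoxa11* was higher by 0.26 (SE 0.19, adjusted p = 0.371). In the colon, the SMC and pericyte levels of *Hoxa10* did not overlap, while those of *Hoxa11* and *Hoxa13* did.

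Pericytes were higher than other FB for 1 of 9 members, *Hoxa9* (log2 difference 1.67, SE 0.33, adjusted p = 7.28e-04), where 25.4% of all genes passed. Without colon replicate 1, 0 were called. *Hoxa9* at 59.2 and 69.5 CPM in colon pericytes lay above every other of the 6 classes, the next being SMC at 31.6 and 32.9. PDGFRahi FB passed for 0 of 9 members in edgeR, with 0 at an unadjusted p under 0.05 and 0 by DESeq2, where 23.2% of genes passed. CD81+ FB passed for 0 of 9 where 5.53% of genes did, with 5 members at an unadjusted p under 0.05 and 0 by DESeq2. That 0 depends on the gate: members were called with the stricter gate and with clusters in place of gates. The clusters placed 74.11% of the gated CD81+ FB in the same class. Of the 9 members, 8 were lower in CD81+ FB than in other FB, led by *Hoxa5* (log2 difference -0.93, SE 0.31, adjusted p = 0.0995) and *Hoxa11* (-0.71, SE 0.20, adjusted p = 0.0547). Without small intestine replicate 1, 2 were called, and without colon replicate 1, 1.

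Endothelium differed from other FB for 4 of 9 members, where 43.3% of genes passed. *Hoxa7* was higher by 1.31 (log2, SE 0.30, adjusted p = 0.00122). *Hoxa10* was lower by 2.67 (log2 difference -2.67, SE 0.36, adjusted p = 3.81e-05), with 16 UMIs in colon endothelium. *Hoxa11* had 0 UMIs there and was at least 13.9-fold higher in other FB (adjusted p = 2.00e-06). *Hoxa13* had 1 UMI, so that other FB were 29.7-fold higher (95% interval from counting error 5.30 to 1173, adjusted p = 0.00294). *Hoxa9*, the member next to *Hoxa10* on the chromosome, differed by 0.64 (SE 0.35, adjusted p = 0.16). Without colon replicate 1, 1 of the 4 was called.

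Fits within a single intestine were chosen after the data were seen. In the colon libraries alone, the members called of 7 tested were 1 in PDGFRahi FB (21.9% of 12246 genes passed), 3 in CD81+ FB (8.27%), 4 in SMC (32.9%), 1 in pericytes (20.5%) and 5 in endothelium (36%). In the small intestine libraries alone, edgeR called 3 of 5 tested in CD81+ FB (11.8% of 12049 genes passed). It called 0 in PDGFRahi FB (29.6%), SMC (14.8%), pericytes (16.2%) and endothelium (40.5%), with 0, 2, 0 and 3 members at an unadjusted p under 0.05, and DESeq2 was not run on these fits. In colon, *Hoxa9* (-0.86, SE 0.19), *Hoxa11* (-0.72, SE 0.14) and *Hoxa13* (-0.92, SE 0.22) were lower in CD81+ FB than in other FB (adjusted p = 0.00720, 0.00383 and 0.0117). In small intestine, *Hoxa2* (-0.98, SE 0.27), *Hoxa5* (-0.84, SE 0.14) and *Hoxa7* (-0.70, SE 0.15) were lower (adjusted p = 0.0138, 4.74e-05 and 0.00163). In colon, *Hoxa5* was higher in endothelium than in other FB by 2.36 (SE 0.47, adjusted p = 7.74e-04) and *Hoxa7* by 2.09 (SE 0.31, adjusted p = 1.17e-04), and *Hoxa7* was higher in SMC by 0.74 (SE 0.26, adjusted p = 0.0402).

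**Figure D4:**
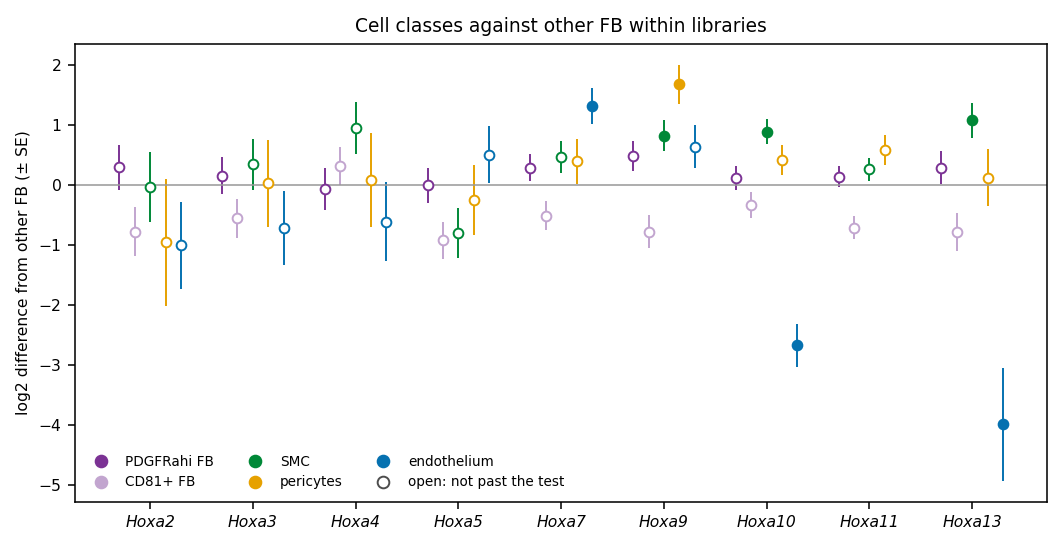
log2 difference (± SE) of each class from other FB within libraries for the 9 Hoxa genes, from the fit with the library as a block. Filled points passed the test at adjusted p under 0.05 and open points did not. *Hoxa11* in endothelium, at 0 UMIs, has no point. SMC points lie above 0 for *Hoxa9*, *Hoxa10* and *Hoxa13*, and endothelium points at -2.67 and -3.99 for *Hoxa10* and *Hoxa13*.

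The order of the classes was not the same for each gene. In small intestine, *Hoxa5* was highest in PDGFRahi FB (55.1 and 68.4 CPM), whose range overlapped that of other FB (41.9 and 58.4). *Hoxa4* was highest in SMC (19.7 and 25.4 CPM), then pericytes (10.1 and 18.3). These *Hoxa4* levels rest on 17 UMIs in SMC and 4 in pericytes, so that their order is uncertain. *Hoxa3* was highest in SMC, at 17.3 and 19.8 CPM, next to PDGFRahi FB at 16.0 in both libraries. The SMC levels of *Hoxa3* rest on 14 UMIs, so that this order is uncertain too. *Hoxa2* in PDGFRahi FB (8.37 and 13.3 CPM) overlapped SMC (17.3 and 2.82, the latter from 1 UMI). Among the 6 classes in colon, *Hoxa13* was highest in SMC, overlapping pericytes (9.11 and 42.8 CPM, from 6 and 8 UMIs), and *Hoxa11* in pericytes, overlapping SMC.

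The replicates of either intestine did not scale alike for each gene. *Hoxa13* was higher in colon replicate 2 than in replicate 1 in all 5 non-endothelial classes, by a factor of 1.49 in CD81+ FB, 2.68 in SMC, 2.77 in other FB, 2.82 in PDGFRahi FB and 4.70 in pericytes. *Hoxa11* was lower in replicate 2 in the same 5 classes (0.636 to 0.748 of replicate 1). *Hoxa10* was at 0.611 to 0.904 of replicate 1 in 4 classes and at 1.07 in pericytes. In small intestine, replicate 2 had *Hoxa4* at 2.08 and 2.14 times replicate 1 in CD81+ FB and other FB, and *Hoxa7* at 0.833 and 0.919. The mice, cell number, depth and possibly the kit differ between the replicates and cannot be told apart. By edgeR, *Hoxa13* was called between the intestines in 0 of the 4 classes in which it was tested (adjusted p = 0.0769 to 0.159, unadjusted p under 0.05 in all 4), although it was at 0 in each small intestine library. DESeq2 called 4 members higher in colon in each of these classes, *Hoxa13* among them.

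Shares of cells with a UMI depend on depth, so each cell was thinned to 1000 UMIs (no cell was shallower). In other FB, 11.0% of cells in colon replicate 1 (95% exact Clopper-Pearson interval 8.91 to 13.4) and 10.3% in replicate 2 (9.55 to 11.2) then had a UMI of *Hoxa9* to *Hoxa13*. Unthinned, at median depths of 8979 and 3939 UMIs, the shares were 58.6% and 34.3%. In small intestine the counts were 0 of 699 and 0 of 9735 cells, which allow shares of up to 0.429% and 0.031% by a limit of 3 counts (exact upper bounds 0.526% and 0.038%). Thinned shares in colon were 17.5% and 19.3% in SMC, 14.6% and 15.7% in pericytes, 13.8% and 13.5% in PDGFRahi FB, 8.41% and 6.40% in CD81+ FB, and 1.72% and 5.88% in endothelium, where the last is 1 of 17 cells. Intervals and limits cover counting error only.

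For *Hoxa2* to *Hoxa5* the thinned shares of other FB were 7.15% (5.36 to 9.32) and 8.91% (8.35 to 9.49) in small intestine, against 0.25% and 1.02% in colon. Unthinned they were 32.0% and 20.4%, and 3.62% and 3.43%. As a background, 93 plasma and immune cells of small intestine replicate 1, with a median of 19471 UMIs, had a UMI of *Hoxa2* to *Hoxa5* in 4 cells (4.30%) and of *Hoxa9* to *Hoxa13* in 0. That background comes from another library and from deeper cells than those of the colon, so that it was not used to read the colon shares. Ambient RNA as a source of the colon UMIs of *Hoxa2* to *Hoxa5* was not tested.

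Both parts of the cluster were counted in single colon fibroblasts. Of 62 such cells with a UMI of *Hoxa2* to *Hoxa5* in colon replicate 1, 42 (67.7%) also had a UMI of *Hoxa9* to *Hoxa13*, against 63.7% of the cells without. In replicate 2 the figures were 144 of 368 (39.1%) and 33.9%. These shares are unthinned and so depend on depth. With cells thinned to the same depth and shallower cells left out, the shares in replicate 1 were 4 of 23 (17.4%) and 23.2%. Those of replicate 2 were 40 of 170 (23.5%) and 20.1%. The direction after thinning thus differed between the colon libraries, and an association of the parts was not tested.

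Other genes of the locus and the cofactors were followed as lists. Of 11 genes listed around the cluster 8 were in the count matrices, 2 to 6 were tested per class between the intestines, and 0 were called in any of the 6 classes by edgeR, beside the member counts above. At an unadjusted p under 0.05 there were 3 in PDGFRahi FB, 2 in CD81+ FB, 3 in other FB, 1 in SMC and 0 in pericytes and endothelium, and DESeq2 called 1, 2, 2, 0, 0 and 0, all lower in colon. Their median log2 fold changes were -1.88, -2.07, -1.29, -1.95, -0.28 and -0.51, where that of all genes lay between -0.01 and 0.02. Of 15 Hox cofactors and regulators 3 to 12 were tested per class and 0 were called by edgeR. At an unadjusted p under 0.05 there were 0, 1, 1, 1, 0 and 0 in the same order of classes, DESeq2 called 1 (*Meis1* in SMC, lower in colon), and the medians lay between -0.38 and -0.08.

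Between classes, 12 cofactors and regulators were tested against other FB. In PDGFRahi FB 5 were lower, where 23.2% of all genes passed, and in CD81+ FB 4 were higher and 1 lower, where 5.53% did. In SMC 1 was higher and 2 lower (29.7% of all genes passed), in pericytes 2 were lower (25.4%) and in endothelium 1 was higher and 4 lower (43.3%), shares of the list below those of all genes.

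The genes most like each member over the 23 sums of a class and library were sought by Pearson correlation of log2(CPM + 1). The sums share libraries and depths, and the values are descriptions. *Hoxa10* was most like *Hoxa11* (r = 0.965), *Hoxd11* (0.953) and *Hoxa9* (0.883), *Hoxa11* most like *Hoxd11* (0.972), and *Hoxa13* most like *Isl1* (0.953), a LIM homeodomain gene, *Hoxd11* (0.928) and *Hoxa11* (0.905). *Hoxa9* was most like *Hoxa10* (0.883), *Hoxa13* (0.866) and *Isl1* (0.834). At the other end, *Hoxa2* was most like *Hoxa3* (0.825), *Hoxc8* (0.818) and *Hoxc4* (0.766), *Hoxa3* most like *Hoxc8* (0.847) and *Hoxa4* most like *Hoxc5* (0.923), *Lrat* (0.910) and *Hoxc4* (0.881). *Hoxa5* was most like no Hox gene but *Trim12a* (0.886), *H2-Q7* (0.879) and *Psmb10* (0.869), and *Hoxa7* was most like *Brap* (0.840), *Zcchc8* (0.825) and *Senp1* (0.824). The nearest gene depended on the measure. By rank (Spearman) correlation it was *Socs7* for *Hoxa4* (0.858), *Skap2* for *Hoxa7* (0.855) and *Ankrd37* for *Hoxa9* (0.863). For *Hoxa2*, *Hoxa5* and *Hoxa10* it stayed the same.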

How the data were processed

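The deposited files hold UMI counts per gene and cell barcode, which the authors made with Cell Ranger 3.0.2 against mm10. Cell Ranger, Seurat 3 and mm10 are taken from the submitters' processing notes, and whether counting used strand is not given in the sources used here. The members and gene lists were chosen with earlier results of these data known, and the marker gates were set after the data were seen.

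A cell was kept if it had 500 genes or more, 1000 UMIs or more and no more than 10% of its UMIs from mitochondrial genes. Doublets were removed with Scrublet in scanpy 1.11.5 (expected 0.8% per 1000 barcodes, 6 to 913 cells per library). Cells were gated on marker scores with Hox genes left out of scoring and clustering. Counts were summed per library and class (at least 10 cells), and sums were tested over all genes with edgeR 4.0.16 (quasi-likelihood, TMM, filterByExpr, Benjamini-Hochberg adjusted p under 0.05). Colon against small intestine also needed a log2 fold change beyond 1.5. DESeq2 1.42.0 was an alternative. Class contrasts carried the library as a block. Other alternatives were RLE size factors, no low-count filter, at least 1000 genes per cell, doublets kept, a stricter gate, clusters in place of gates, a replicate block and leaving out each library. The scripts were tested on simulated data.

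All 9 members were described in every class. Of the other lists, genes called between the intestines were to be named. Likeness used the 3 genes with the highest Pearson r among those with a mean of at least 5 CPM. Gene positions came from GENCODE vM21 on GRCm38 (28339 IDs found of 28692) and promoters from RefSeq (GRCm38.p6). The p-values measure the spread between libraries. Ambient RNA was not removed.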

Additional observations from a re-analysis of the deposited data

Results flagged for a closer look

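*Hoxa5* and *Hoxa7* passed a test of whether the colon effect differed between cell classes, on a thin base. In endothelium against other FB, the log2 difference of colon from small intestine was higher by 2.96 for *Hoxa5* (edgeR adjusted p = 0.00151) and by 1.73 for *Hoxa7* (adjusted p = 0.0259). *Hoxa5* was at 29.3 CPM in the single small intestine library with endothelial cells and at 16.0 and 27.1 in colon, where other FB went from 41.9 and 58.4 CPM to 2.43 and 5.80. *Hoxa7* was at 52.8 CPM against 86.5 and 36.2 in endothelium, and at 38.7 and 35.5 against 17.5 and 16.0 in other FB. Small intestine replicate 2 had 0 endothelial cells and colon replicate 2 had 17, so that the small intestine side had no replicate and both results lean on the replicate 1 libraries. Without colon replicate 1, 0 of the 2 were called, without small intestine replicate 2, 1 was, and DESeq2 called 1.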

How the results depend on the processing

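All members tested between the intestines kept their direction under every alternative run, and no result reversed. The number called did not hold. With DESeq2 it was 8 in PDGFRahi FB (from 5), 6 in CD81+ FB (from 2), 8 in other FB (from 3) and 6 in SMC (from 2). With no low-count filter it was 8, 7, 7 and 6 in the same order and 3 in pericytes (from 0). With doublets kept it was 3 in PDGFRahi FB, 1 in CD81+ FB and 1 in SMC, with the stricter gate 3 in PDGFRahi FB and 1 in SMC, and with clusters 3, 4 and 5 in PDGFRahi FB, CD81+ FB and SMC. Leaving out 1 library gave 0 to 8 in PDGFRahi FB, 0 to 6 in CD81+ FB, 0 to 4 in other FB, 1 to 4 in SMC and 0 to 3 in pericytes. Where it left 1 library a side, that library was assumed to vary like the other group. The cause was not tested.

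With the replicate number as a block, the calls were 8, 7, 8, 7 and 3 in PDGFRahi FB, CD81+ FB, other FB, SMC and pericytes. Deviations of same-numbered libraries correlated at 0.494 to 0.768, but there are only 2 pairs and the labels do not say that a number marks an experiment. In endothelium no block could be fitted, since small intestine replicate 2 had no cells, and only that library could be left out.

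Against other FB, PDGFRahi FB had 1 member called in the colon libraries alone (from 0). CD81+ FB had 1 with RLE size factors, 3 with the stricter gate, 7 with clusters, 3 in either intestine alone and 0 to 2 with 1 library left out. SMC had 1 with DESeq2 and 0 to 3 with 1 library left out, pericytes 0 to 1 and endothelium 1 to 4. In the small intestine libraries alone SMC, pericytes and endothelium had 0. The 2 endothelial differences of the colon effect became 1 with DESeq2 and 0 to 2 with 1 library left out.

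Counts over all genes moved too. In PDGFRahi FB they were 221, and 534 with DESeq2, 595 with no filter, 137 with doublets kept and 943 with the block. In CD81+ FB they were 43, and 251, 321, 95 (clusters) and 316. In other FB they were 45, and 400, 317, 77 and 691, in SMC 45, and 168, 253, 224 and 398, and in pericytes 0, and 10 (DESeq2), 39 and 82. In endothelium they were 5, and 3 with DESeq2, 13 with no filter, 26 with clusters and 1 with RLE or at least 1000 genes per cell. Against other FB, CD81+ FB had 680 genes, and 1253 with clusters. For the difference of the colon effect the counts were 160 in CD81+ FB (45 with DESeq2, 406 with no filter, 105 with doublets kept, 266 with the stricter gate, 661 with clusters), 133 in SMC (373, 55 and 332 with no filter, doublets kept and clusters), 28 in pericytes (78 with DESeq2, 229, 18 and 70) and 173 in endothelium (344 with no filter).

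Thinning to 2000 UMIs in place of 1000 gave shares with *Hoxa9* to *Hoxa13* of 22.4% and 20.1% in colon other FB (unthinned 58.6% and 34.3%), and shares with *Hoxa2* to *Hoxa5* of 12.2% and 15.9% in small intestine (unthinned 32.0% and 20.4%). Depth limits the levels of small classes, such as pericyte *Hoxa5*, which rests on 13 UMIs in small intestine and 5 in colon.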

Other observations

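Interstitial cells of Cajal, the pacemaker cells of gut muscle, were too few for a comparison (9 and 41 gated cells in the colon libraries, 0 and 2 in small intestine). In colon they held *Hoxa10* at 410.0 and 401 CPM, *Hoxa9* at 305 and 95.5, *Hoxa11* at 94.6 and 89.1 and *Hoxa13* at 42.0 and 44.6. A UMI of *Hoxa9* to *Hoxa13* was found in 9 of 9 cells of colon replicate 1 and in 32 of 41 of replicate 2 (78.0%, 95% exact interval 62.4 to 89.4), without thinning. The muscle coat that holds most of these cells had been stripped off.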
